A study of Mus musculus with 6 samples.

Results

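Manf, Cdnf, Creld1 and Creld2 encode 2 pairs of related proteins of the secretory pathway, and are described here in hippocampal messenger RNA of mice that carry short-form ATF6. They were chosen by gene name, as 4 of the 17385 genes in the authors' deposited comparison, with the fold changes of that comparison known. Their values are therefore a description and carry no test. Mice labelled sATF6-KI had the genotype Rosa26-sATF6-MER;Emx1-Cre, and control mice carried EMX1-Cre alone, so that both groups shared the Cre. All were C57BL/6 and 2 months old, with 3 hippocampus samples in each group. Emx1 drives Cre in a forebrain lineage that includes excitatory neurons, so hippocampal cells outside that lineage may lack the transgene product. Which cell types carried it was not measured here. MER denotes a mutated estrogen receptor domain that binds a ligand, and the sources used here do not say whether a ligand was given.

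When unfolded proteins build up in the endoplasmic reticulum (ER), the membrane protein ATF6 travels to the Golgi and is cut there, and its released cytosolic part enters the nucleus as a transcription factor. A classical DNA element through which it acts, with the general factor NF-Y, is the ER stress response element (ERSE), CCAAT and CCACG held apart by 9 bases. MANF and CDNF are small soluble proteins with a saposin-like amino-terminal domain. They reside in the ER, can be secreted, and were first studied as trophic factors for dopamine neurons, and MANF binds the ER chaperone BiP. CRELD1 and CRELD2 are cysteine-rich proteins with epidermal growth factor-like domains. CRELD1 is anchored in the membrane, and CRELD2 is a soluble ER protein known to respond to ER stress.

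The promoter sequences are shown first because the window of Creld2 held an ERSE and those of Creld1 and Cdnf did not. RefSeq windows (GRCm38.p6) of 300 bases, 250 before a gene's start and 50 after it, were matched for 3 of the 4 genes, Cdnf, Creld1 and Creld2. With 3 of 4 matched, below the minimum of 80%, a check of motif content over the whole family is void. The part of each window that lies before the start and outside annotated genes follows. Capitals mark CCAAT and CCACG of the ERSE match in Creld2, which reads on the opposite strand, and the CCAAT letters (ATTGG on the opposite strand) in Creld1 and Cdnf.
Creld2, chr15:88819396-88819645, plus strand: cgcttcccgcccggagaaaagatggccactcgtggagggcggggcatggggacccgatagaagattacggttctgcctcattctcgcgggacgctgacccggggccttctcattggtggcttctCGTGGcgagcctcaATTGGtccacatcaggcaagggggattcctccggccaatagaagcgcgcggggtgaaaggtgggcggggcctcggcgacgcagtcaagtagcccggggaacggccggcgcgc
Creld1, chr6:113483141-113483296, plus strand: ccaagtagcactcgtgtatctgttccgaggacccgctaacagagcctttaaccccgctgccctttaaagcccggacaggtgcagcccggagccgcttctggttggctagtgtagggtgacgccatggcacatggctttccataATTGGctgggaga
Cdnf, chr2:3512815-3513029, plus strand: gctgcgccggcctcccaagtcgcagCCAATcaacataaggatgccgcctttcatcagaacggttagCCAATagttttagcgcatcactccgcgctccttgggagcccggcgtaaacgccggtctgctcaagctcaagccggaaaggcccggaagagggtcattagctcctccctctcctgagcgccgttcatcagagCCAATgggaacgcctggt
The Creld2 window held 1 ERSE match, between 126 and 108 bases before the start. It also held 3 CCAAT and 2 CCACG, each counted on both strands and including those of the ERSE. The windows of Creld1 and Cdnf held CCAAT, with 1 and 3 copies, and neither CCACG nor the ERSE. Over all 27025 genes with a window, 0.137% held the ERSE on either strand, 35.5% held CCACG and 41.1% held CCAAT. A match of letters is a description and not a binding site.

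In sATF6-KI hippocampus Manf, Creld2 and Creld1 were higher than in control and Cdnf was not called, at the authors' adjusted p under 0.05 in their deposited table. Thus 3 of 4 were called higher, where 5.34% of all 17385 genes were called in either direction, 3.41% higher and 1.93% lower. When a 1.5-fold difference was also required, 2 of 4 were called higher, Manf and Creld2, against 1.18% of all genes. Since the genes were chosen with this comparison known, nothing is read from these counts. In the authors' deposited table the fold changes ran from 8.66-fold for Manf to 0.892-fold for Cdnf. Values after ± are Wald standard errors of the log2 fold change, and intervals are 95% Wald intervals. Values per sample are not given, because the table's columns per library match no sample label, so whether single samples overlapped between the groups cannot be said here.

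Manf, on chromosome 9 from 106838312 to 106891979 on the minus strand (GRCm38, GENCODE M21), had a log2 fold change of 3.11 ± 0.08 per the authors' deposited table, 8.66-fold higher in sATF6-KI with an interval of 7.75 to 9.67. Its mean normalized expression over all libraries, the authors' baseMean, was 7590 in the deposited table, above that of 94.0% of genes on this scale, which is not corrected for gene length. With 3 libraries in each group, that mean and fold change imply levels of 13609 in sATF6-KI and 1572 in control, in normalized counts, if the deposited fold change was not shrunken. These implied levels carry no spread over samples. Among the 16368 genes with a baseMean of at least 10, called or not, Manf was 7th by fold change per the authors' deposited table. Its nearest neighbours in that order, a likeness in fold alone, were Sdf2l1, an ER chaperone cofactor, at 3.69 ± 0.10 and Tes, a focal adhesion protein, at 3.29 ± 0.17 above it per the authors' deposited table. Below it were Gckr, a glucokinase regulator, at 3.11 ± 0.81 and Trh, the thyrotropin-releasing hormone precursor, at 3.09 ± 0.27 per the authors' deposited table. The interval of Manf overlapped those of Tes, Gckr and Trh, and lay below that of Sdf2l1.

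Cdnf, the paralog of Manf, lies on chromosome 2 from 3513030 to 3526376 on the plus strand. Its log2 fold change was -0.16 ± 0.27 per the authors' deposited table, 0.892-fold with an interval of 0.622 to 1.28. The interval holds both a decrease and a small increase, so no change was detectable at this precision, and a rise of the size of Manf's lies outside it. Cdnf had a baseMean of 60.0 per the authors' deposited table, above that of 22.0% of genes on the same scale, and implied levels of 56.6 in sATF6-KI and 63.4 in control. Its error was the widest of the 4, 0.27 on the log2 scale against 0.08 for Manf. The log2 fold changes of Manf and Cdnf differed by 3.28 per the authors' deposited table. Gm1673, Gstm1, Gpn3 and Mdga1, the genes next to Cdnf by fold, all had a log2 fold change of -0.16 per the authors' deposited table and were not called.

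Creld2, on chromosome 15 from 88819646 to 88826683 on the plus strand, had a log2 fold change of 1.37 ± 0.10 per the authors' deposited table, 2.59-fold higher in sATF6-KI with an interval of 2.27 to 2.96. Its baseMean was 727 per the authors' deposited table, above that of 53.0% of genes, and implied levels were 1049 in sATF6-KI and 405 in control. By fold it stood 62nd of the 16368 genes with a baseMean of at least 10, called or not. Cxcl10, a chemokine, at 1.40 ± 0.42 and Ung, a DNA glycosylase, at 1.39 ± 0.20 were next above Creld2 per the authors' deposited table. Cfp, the complement factor properdin, at 1.37 ± 0.15 and Trib3, a stress-induced pseudokinase, at 1.36 ± 0.33 were next below Creld2 per the authors' deposited table. All 4 intervals overlapped that of Creld2.

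Creld1, on chromosome 6 from 113483297 to 113493343 on the plus strand, had a log2 fold change of 0.58 ± 0.07 per the authors' deposited table, 1.49-fold higher in sATF6-KI with an interval of 1.35 to 1.64. It was the smallest of the 3 increases, and the interval of Creld1 did not overlap that of Creld2. The fold of Creld2 was 1.74 times that of Creld1 per the authors' deposited table. Creld1 had a baseMean of 3483 per the authors' deposited table, above that of 85.1% of genes, and implied levels of 4169 in sATF6-KI and 2796 in control. By fold it stood 582nd of the 16368 genes, called or not. Over all 17385 genes 206 were called higher at 1.5-fold or more, so not all genes above Creld1 were called. Of its neighbours Olfr570, Otof, Gm12296 and Galr1, all at 0.58 on the log2 scale per the authors' deposited table, Otof was called. The other 3 had a baseMean under 20 and errors of 0.45 to 0.61, against 0.07 for Creld1.

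**Figure D1:**
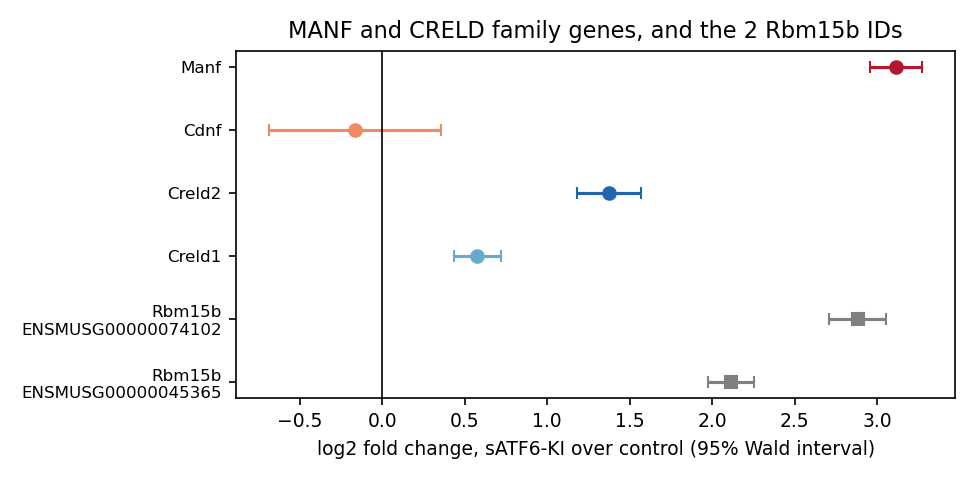
The horizontal axis is the log2 fold change, sATF6-KI over control, with bars for 95% Wald intervals, for the 4 genes (circles) and the 2 Rbm15b IDs (squares). Manf sits at 3.11, Creld2 at 1.37 and Creld1 at 0.58 with intervals above 0, and the interval of Cdnf, around -0.16, holds 0.

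Implied levels can be compared between genes only per length, and were divided by the exonic length of the GENCODE transcript paired with the RefSeq one, within the RefSeq gene span. Those lengths were 868 bases for Manf, 3013 for Cdnf, 2247 for Creld1 and 1364 for Creld2. In sATF6-KI the implied level per kb was 15679 for Manf, 1856 for Creld1, 769 for Creld2 and 18.8 for Cdnf. In control the same order held, at 1811 for Manf, 1244 for Creld1, 297 for Creld2 and 21.0 for Cdnf. Manf thus stood at 8.45 times the level of Creld1 per kb in sATF6-KI and 1.46 times in control. Creld1 stood at 2.41 times the level of Creld2 per kb in sATF6-KI and 4.19 times in control. The transcript Manf-202 has a longer last exon and 2247 bases in GENCODE M21. With that length Manf had 6057 per kb in sATF6-KI and 699 in control, so the order of Manf and Creld1 in control turns with the transcript chosen. The order of Creld1, Creld2 and Cdnf does not involve that choice.

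**Figure D2:**
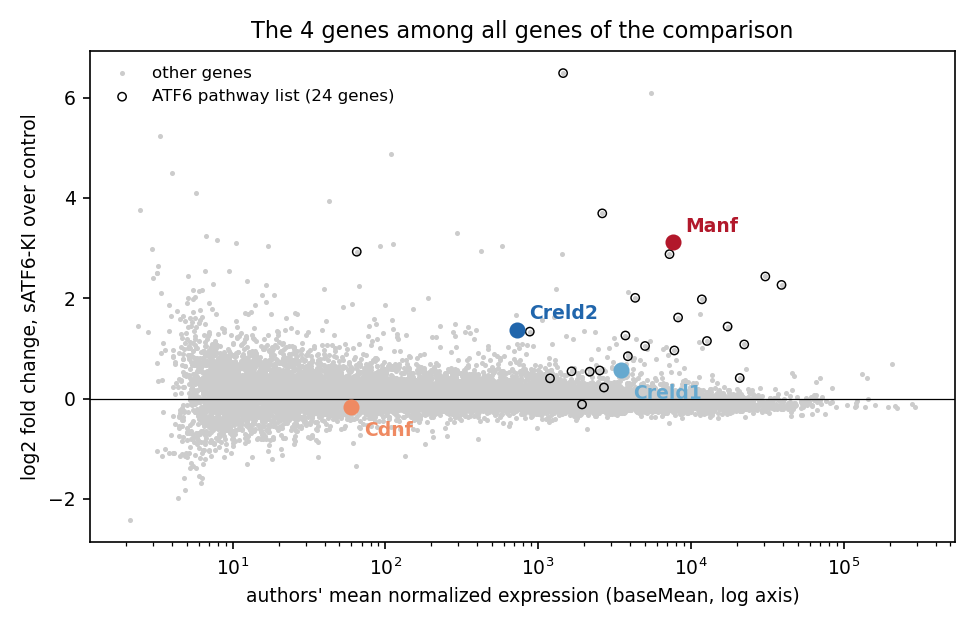
Each point is 1 gene, with the authors' mean normalized expression on a log axis and the log2 fold change, sATF6-KI over control, on the vertical axis; open circles are the 24 genes of the ATF6 pathway list. Manf, Creld2 and Creld1 lie among the open circles, with mean expression of 7590, 727 and 3483, and Cdnf lies at 60.0 within the band of the other genes.

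The members were then placed among 24 genes that encode chaperones, folding enzymes, degradation factors and regulators of the unfolded protein response. The list was chosen with earlier results of these data known, as were the later lists not defined by sequence. Counts over such lists are descriptions. Of these 24 genes 22 rose and none fell per the authors' deposited table, with a median log2 fold change of 1.20, where 3.41% of all genes rose, 1.93% fell and the median was 0.00. Derl1, a degradation factor at 0.22 ± 0.08, and Sdf2, a chaperone cofactor at -0.12 ± 0.07 per the authors' deposited table, were not called. Ordered together by log2 fold change, Manf was 3rd of the 28 genes. It followed Derl3, a component of ER-associated degradation, at 6.49 ± 0.13, and Sdf2l1 per the authors' deposited table. The interval of Manf overlapped those of Fkbp11, an ER prolyl isomerase at 2.93 ± 0.30, and Pdia4, a disulfide isomerase at 2.88 ± 0.07 per the authors' deposited table, and lay above that of Hspa5, the gene for BiP, at 2.43 ± 0.09. The intervals of Hyou1, an ER chaperone of the HSP70 family at 1.98 ± 0.06, and Herpud1, an ER membrane protein of degradation at 2.01 ± 0.08 per the authors' deposited table, lay between those of Manf and Creld2. Creld2 was 12th, between Sel1l, a partner of the HRD1 ubiquitin ligase, at 1.44 ± 0.06 and Ddit3, the transcription factor CHOP, at 1.33 ± 0.10 per the authors' deposited table, and its interval overlapped both. Creld1 was 20th, next to Xbp1, a transcription factor, at 0.84 ± 0.09 and Syvn1, the HRD1 ubiquitin ligase, at 0.56 ± 0.07 per the authors' deposited table, again with overlapping intervals. Cdnf was 28th and last, after Sdf2. Its interval, -0.69 to 0.36 on the log2 scale, overlapped those of Sdf2 and Derl1, among others, so the last place is not resolved. Overlap of intervals is not a test of the difference between genes.

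Markers of other cells were read beside these increases, since the tissue was bulk hippocampus, where fewer cells of a type and less RNA per cell cannot be told apart. Over all genes 3.41% rose, 1.93% fell and the median log2 fold change was 0.00. Of 12 choroid plexus markers 11 rose and none fell per the authors' deposited table, between 0.35 and 1.07 on the log2 scale with a median of 0.47, and none was at 0 (baseMean 679 to 131970). The 8 with the lowest adjusted p were Tmem72, Cldn2, Kl, Clic6, Enpp2, Kcne2, Kcnj13 and Otx2. Of 14 markers of glutamatergic forebrain neurons 5 fell (Itpka, Dkk3, Zbtb18, Fibcd1 and Bcl11b) and none rose per the authors' deposited table, with a median of -0.16, and all had a baseMean of at least 327. Medians were -0.01 for 8 GABAergic interneuron markers, -0.16 for 8 astrocyte, -0.04 for 8 microglia, -0.13 for 8 oligodendrocyte and 0.11 for 8 endothelial and mural markers per the authors' deposited table. Across these lists Pdgfrb rose, and Aldoc and P2ry12 fell. Each was the only call among the 8 markers of its type, and nothing is read from these single calls. The part of cell makeup in the values of Manf, Creld1 and Creld2 was not tested. As a check of the transgene, Atf6 was 1.43-fold and Esr1, whose ligand-binding part MER comes from, 68.0-fold higher in sATF6-KI per the authors' deposited table.

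The genes around each member gave the local background. Manf and Rbm15b, which encodes an RNA-binding protein of the m6A methylation machinery, lie one after the other on the same strand. Rbm15b, under the ID ENSMUSG00000074102, spans 106880918 to 106887428 on chromosome 9. Of the 7 annotated Manf transcripts, 2 span it with an intron, and the long last exon of Manf-202 reaches 106887415 and shares 14 bases with Rbm15b. That is 0.215% of the exonic bases of Rbm15b. In the RefSeq annotation the genes are 1677 bases apart. ENSMUSG00000074102 was 7.37-fold higher in sATF6-KI (interval 6.55 to 8.30) per the authors' deposited table, with implied levels of 2513 in sATF6-KI and 341 in control. The other ID that the table calls Rbm15b, ENSMUSG00000045365, was 4.33-fold higher (interval 3.94 to 4.76) per the authors' deposited table and has no entry in GENCODE M21. Its place in the genome is therefore not used here. The 2 IDs were kept apart from Manf in every count. Whether reads from beyond the end of Manf were counted at either ID was not tested.

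**Figure D3:**
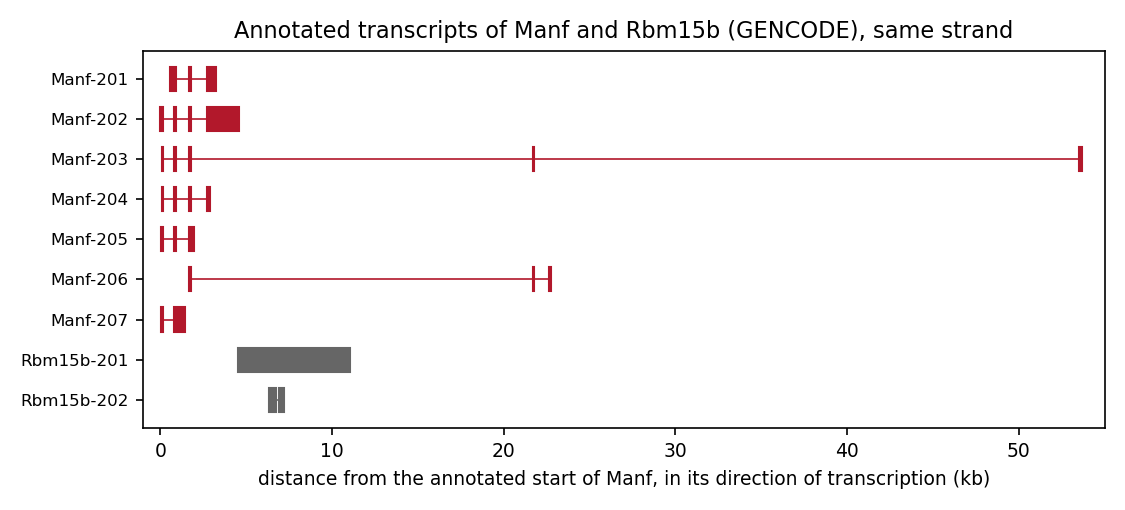
Annotated transcripts of Manf (red) and Rbm15b (grey) are drawn by distance in kb from the annotated start of Manf, with exons as boxes and introns as lines. The last exon of Manf-202 meets the start of Rbm15b with 14 shared bases, and 2 Manf transcripts run past Rbm15b.

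The remaining genes at the Manf locus did not pass the threshold. Vprbp (Dcaf1 in GENCODE M21), a ubiquitin ligase substrate receptor that overlaps Manf on the opposite strand, was at 0.04 ± 0.10 on the log2 scale per the authors' deposited table. Dock3, a guanine nucleotide exchange factor on the strand of Manf and 846 bases from its span, was at 0.01 ± 0.07 per the authors' deposited table. The antisense gene 4930524O07Rik, which overlaps the span of Manf from the opposite strand, was at 0.33 ± 0.50 per the authors' deposited table, at a baseMean of 14.7. The sources used here do not say whether the authors counted by strand, so reads of Manf and of these opposite-strand genes may not be fully separated.

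Creld2 stands head to head with Alg12, a mannosyltransferase of the dolichol-linked glycan, and their starts are 328 bases apart. The ERSE match of Creld2, at chr15:88819520-88819538, also lies in the Alg12 window, between 220 and 202 bases before the start of Alg12 and on the same strand as Alg12. Alg12 was at 0.30 ± 0.11 on the log2 scale per the authors' deposited table (adjusted p = 0.0865), against 1.37 ± 0.10 for Creld2. Pim3, a kinase on the other side of Creld2, was at -0.03 ± 0.10 per the authors' deposited table. Cdnf stands head to head with Hspa14, a ribosome-associated HSP70, with RefSeq starts 251 bases apart. The ID that the authors' deposited table calls Hspa14, ENSMUSG00000051396, was at -0.10 ± 0.09. GENCODE M21 names that ID Gm45902 and has Hspa14 as a separate, overlapping gene, so which of them the value belongs to is uncertain. Creld1 starts 157 bases after the end of Il17rc, a receptor gene, which was at 0.27 ± 0.17 per the authors' deposited table, and its end is 296 bases from Prrt3, at -0.08 ± 0.07. None of these neighbours of Creld2, Cdnf and Creld1 was called.

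Creld2 was next set beside the other genes that hold an ERSE in their window, a list chosen by sequence alone. Of the 17385 genes 12860 had a matched window, or 74.0%. That is below the minimum of 80%, so a check over the whole table is void and the counts describe the matched genes. Of 21 measured genes with an ERSE 13 rose and none fell per the authors' deposited table, with a median log2 fold change of 0.56. Without Creld2 the count was 12 of 20. Among all genes with a window 3.62% rose and 2.05% fell, and the median was 0.00. The element was first described in promoters of ER chaperone genes, and 8 of the 21 are also in the ATF6 pathway list, of which all 8 rose. Of the 12 others, besides Creld2, 4 rose. They were Zfp57, a zinc finger protein of imprinting control, at 1.67 ± 0.10, Ero1lb, an ER oxidase, at 0.59 ± 0.10, Hnrnpa3, an RNA-binding protein, at 0.52 ± 0.07, and Pan2, a deadenylase subunit, at 0.47 ± 0.09 per the authors' deposited table. The letters of the match are shown on its own strand for Creld2 and for 5 genes that rose, so that the 9 bases between CCAAT and CCACG, in lower case, can be compared.
Creld2, chr15:88819520-88819538, minus strand: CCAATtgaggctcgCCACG
Derl3, chr10:75893242-75893260, minus strand: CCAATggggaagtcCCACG
Hspa5, chr2:34772025-34772043, plus strand: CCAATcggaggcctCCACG
Pdia6, chr12:17266491-17266509, plus strand: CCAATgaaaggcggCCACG
Zfp57, chr17:37002492-37002510, minus strand: CCAATgcctgaatgCCACG
Syvn1, chr19:6046532-6046550, plus strand: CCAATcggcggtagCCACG
By fold Creld2 stood 6th of the 21, after Derl3, Hspa5, Hsp90b1, the ER HSP90, at 2.27 ± 0.07, Zfp57 and Pdia6, a disulfide isomerase, at 1.62 ± 0.08 per the authors' deposited table. Just below it were Calr, the lectin chaperone calreticulin, at 1.08 ± 0.06 and Dnajc3, a BiP cochaperone, at 1.05 ± 0.07 per the authors' deposited table. Genes with the same letters and no call included Acacb, an acetyl-CoA carboxylase, at 0.34 ± 0.12 and Adcy3, an adenylyl cyclase, at 0.11 ± 0.06 per the authors' deposited table. Xlr3a and Xlr3b are near-identical copies and their values are uncertain.

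**Figure D4:**
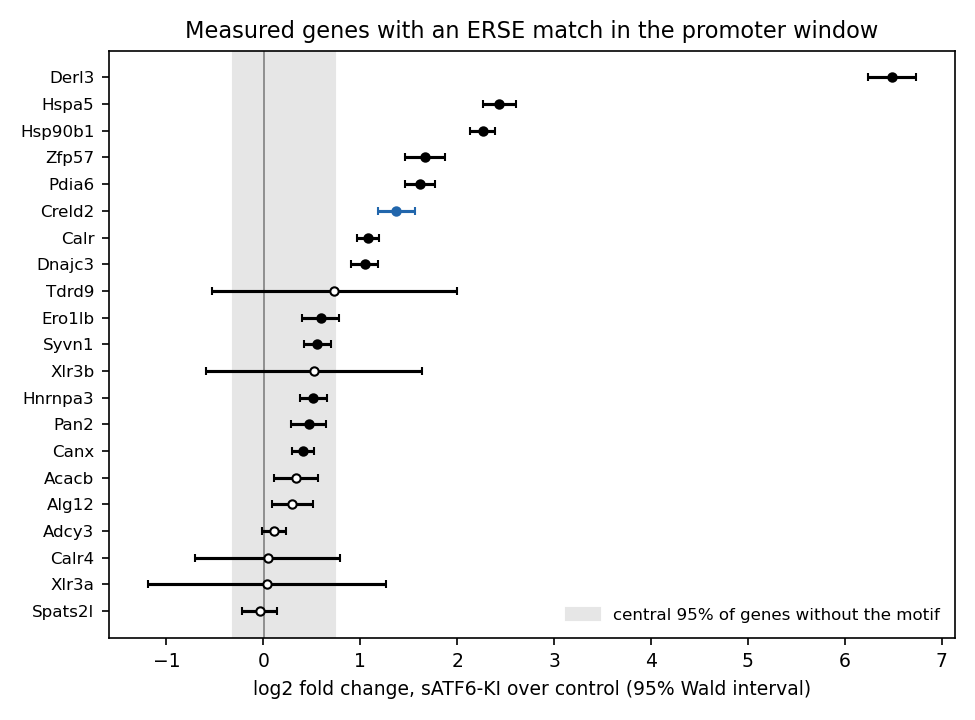
The 21 measured genes with an ERSE match are ordered by log2 fold change, sATF6-KI over control, with 95% Wald intervals; filled points were called higher, Creld2 is blue, and the grey band holds the central 95% of genes without the match, from -0.32 to 0.74. Creld2 lies to the right of the band, 6th from the top, and Alg12, which shares its match, lies inside the band.

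Reported binding partners of the proteins came next. Of 8 partners of MANF and CDNF 3 rose and none fell per the authors' deposited table, with a median log2 fold change of 0.13, where 3.41% of all genes rose, 1.93% fell and the median was 0.00. The 3 were ER folding proteins: Hspa5 (BiP), 5.41-fold higher in sATF6-KI, Pdia6, 3.07-fold, and P4hb, a disulfide isomerase, 2.03-fold per the authors' deposited table. The KDEL receptors, which return escaped ER proteins to the ER and bind MANF, were at -0.05 ± 0.08 for Kdelr1, 0.12 ± 0.09 for Kdelr2 and 0.10 ± 0.40 for Kdelr3 per the authors' deposited table, and none was called. The intervals of all 3 receptors hold 0 and lie below that of Manf, at 3.11 ± 0.08. Nptn, neuroplastin, a cell-surface protein reported to bind MANF, was at -0.15 ± 0.06 per the authors' deposited table (adjusted p = 0.196). Ern1, the ER stress sensor IRE1, was at 0.14 ± 0.10 per the authors' deposited table (adjusted p = 0.555).

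Of 8 measured genes on a list of 9 CRELD partners and pathway members 2 fell and none rose per the authors' deposited table, with a median log2 fold change of -0.01, against 1.93% lower, 3.41% higher and a median of 0.00 over all genes. CRELD1 acts with calcineurin, and the genes that fell encode calcineurin subunits. Ppp3ca, the catalytic alpha subunit, was 1.24-fold lower and Ppp3r1, the regulatory subunit, 1.16-fold lower in sATF6-KI per the authors' deposited table, while Ppp3cb, the beta subunit, was at -0.16 ± 0.06 (adjusted p = 0.0708). Of the 14 glutamatergic neuron markers 5 also fell, with a median of -0.16 over the list, and their part in this decrease was not tested. The nicotinic acetylcholine receptor subunits, whose maturation both CRELD proteins are reported to affect, were at 0.09 ± 0.12 for Chrna4, 0.01 ± 0.10 for Chrna7 and -0.04 ± 0.06 for Chrnb2 per the authors' deposited table. Lrp1, an endocytic receptor, was at 0.09 ± 0.09 and Nfatc1, a target of calcineurin, at 0.13 ± 0.13 per the authors' deposited table, and neither was called.

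Because MANF and CDNF are described as neurotrophic factors, classical neurotrophic factors and their receptors were listed as well. Of 21 measured genes of 25, 1 rose and none fell per the authors' deposited table, with a median log2 fold change of 0.03. Among all genes 3.41% rose and the median was 0.00, so a count of 1 in 21 is near the background and is no result about these factors. The gene that rose was Igf2, a growth factor known in choroid plexus and meninges, 1.53-fold higher in sATF6-KI per the authors' deposited table. The choroid plexus markers had a median of 0.47 in the same comparison, and their part in the value of Igf2, at 0.61 ± 0.17, was not tested. Bdnf, the brain-derived neurotrophic factor, was at -0.08 ± 0.10 and its receptor Ntrk2 at -0.01 ± 0.05 per the authors' deposited table. Gfra1, a receptor of GDNF, at -0.18 ± 0.08 (adjusted p = 0.180) and Vegfa, a vascular growth factor, at 0.19 ± 0.08 (adjusted p = 0.206) were the uncalled genes nearest the threshold per the authors' deposited table.

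**Figure D5:**
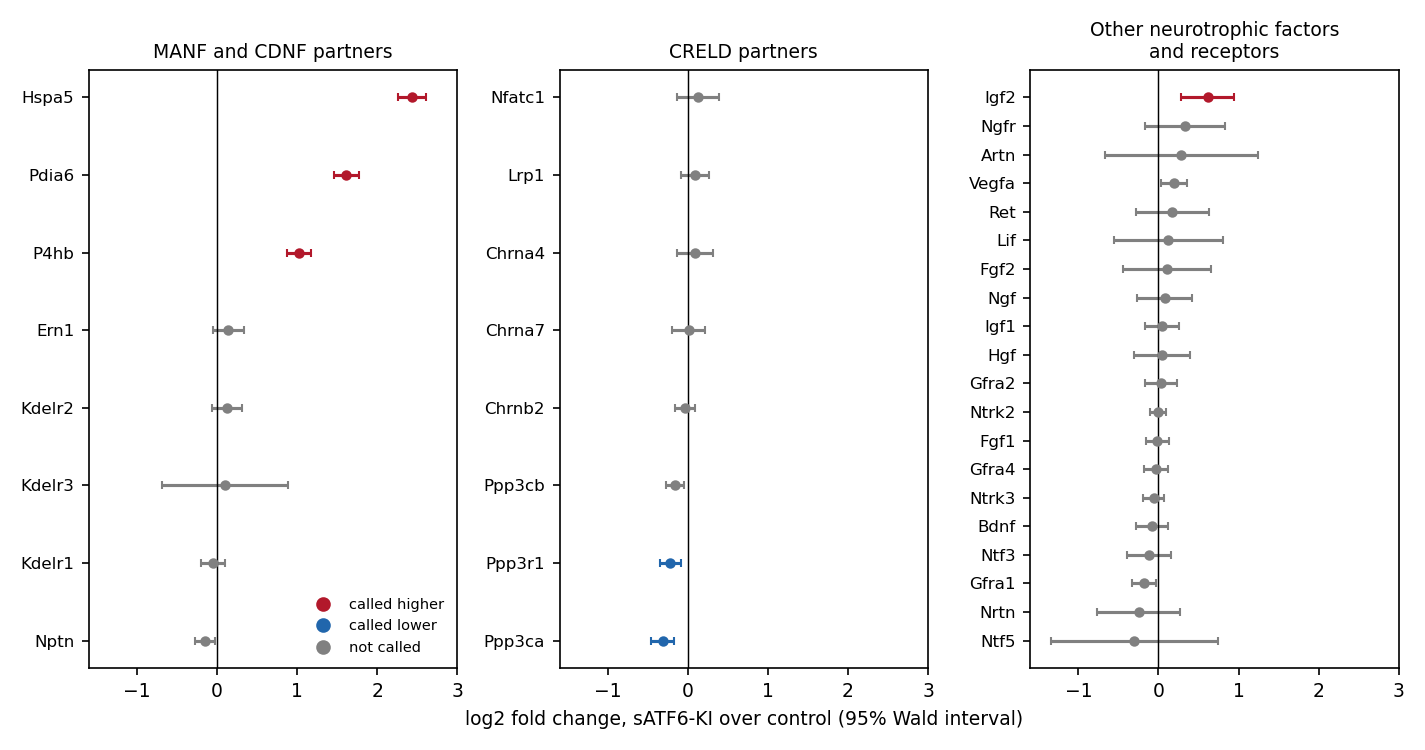
The 3 panels give log2 fold changes, sATF6-KI over control, with 95% Wald intervals for partners of MANF and CDNF, CRELD partners, and other neurotrophic factors and receptors, for genes with a baseMean of at least 10; red was called higher, blue lower and grey not called. The red points are Hspa5, Pdia6, P4hb and Igf2, and the blue ones are Ppp3ca and Ppp3r1.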

How the data were processed

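Messenger RNA of 6 hippocampus samples, 3 sATF6-KI and 3 control, was sequenced. The submitters' processing notes list STAR, HTSeq, DESeq2, cutadapt and Trim Galore. Tool versions, genome build, annotation and the strand setting of the counting are not stated in the sources used here. Per the file headers, the authors' deposited log2 fold change, Wald statistic (a score with no fixed range), p-value and adjusted p-value describe 1 comparison. The deposited baseMean is a signal, the authors' normalized expression averaged over libraries. A further 6 columns of values per library match no sample label and were not used, so depth per sample is unknown here. The labels number the samples of a group as replicates without saying that each is a separate mouse. The error behind the p-values may therefore be technical and leave out variation between mice.

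The deposited p-value and the normal p of its Wald statistic differed by no more than 2.89e-15, and the deposited standard error was not the one behind it (the ratio of fold change to that error was a median of 1.21 times the statistic). The error used is the log2 fold change divided by the statistic. Calls use an adjusted p under 0.05, as deposited. Coordinates come from GENCODE M21 (GRCm38) and promoter windows from RefSeq (GRCm38.p6), matched by gene ID or symbol for 12860 genes. Motif search and p adjustment were tested on simulated data. The members and lists were chosen with earlier results of these data known. The rule for named genes took the 4 members, both Rbm15b IDs, Atf6 and Esr1, 2 genes either side of each member by fold, all partners, up to 8 called genes by lowest adjusted p from each other list, and up to 2 uncalled ones, of which none was named for cell markers. Genome neighbours, genes beside members in the pathway order, ERSE genes beyond those, Bdnf and Ntrk2 were chosen after their values were seen. Software was matplotlib 3.10.9, scipy 1.17.1, numpy 2.4.6, pandas 2.3.3 and Python 3.11.15.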

Additional observations from a re-analysis of the deposited data

How the results depend on the processing

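The calls of Manf, Creld2 and Creld1 held at an adjusted p under 0.01 and by Bonferroni. They also held with a baseMean of at least 10 and with protein-coding genes alone, the last chosen after seeing the data. Cdnf was not called under any of these settings, an outcome fixed in advance at 0.01 and by Bonferroni, which only tighten the call. A fold change of at least 1.5 ended the call of Creld1, whose fold of 1.49 (0.58 on the log2 scale) lies just under it. The 928 called genes (592 higher, 336 lower) became 514 (379 and 135) at 0.01, 268 (234 and 34) by Bonferroni and 217 (206 and 11) with that fold, settings that tighten the call by construction. Of ERSE genes 13 rose under 0.01 and Bonferroni and 9 with that fold. With up to 1 mismatch in CCAAT 24 of 131 genes rose (18.3%). That set includes the 21 exact matches and the 13 of them that rose, so it is not a separate check. With ERSE-II, a related element, 4 of 8 rose, where 3.62% of all genes with a window did. With CCACG alone 254 of 6391 rose (3.97%), near that background. No paired analysis was possible because the columns per library carry no sample or replicate label. Fits of the samples, pseudocounts, other normalizations and fits without single replicates were not run for that reason, and the planned list by protein carboxy-terminus was not run because protein sequences were not used here.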

Other observations

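The saposin-like fold of MANF is shared by proteins outside its family. Of 7 measured genes of 9 on that list 1 rose and none fell per the authors' deposited table, with a median log2 fold change of 0.03, against 3.41% higher, 1.93% lower and a median of 0.00 over all genes. It was Cnpy3, a canopy protein that assists Toll-like receptor folding, 1.59-fold higher in sATF6-KI per the authors' deposited table. The canopy proteins Cnpy1, at 1.69 ± 0.73 with a baseMean of 17.8, and Cnpy2, at -0.15 ± 0.08, were not called per the authors' deposited table.

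Of 8 EF-hand calcium-binding proteins of the secretory pathway 2 rose and none fell per the authors' deposited table, with a median log2 fold change of 0.12, against the same shares of all genes, 3.41% higher and 1.93% lower. Both were nucleobindins. Nucb2, the precursor of the peptide nesfatin-1, was 2.06-fold and Nucb1, a Golgi protein, 1.20-fold higher in sATF6-KI per the authors' deposited table. Nucb1 is also 1 of the 4 genes with a match to ERSE-II, a related element, that rose, beside Herpud1, an ER membrane protein of degradation, at 2.01 ± 0.08, Dnajb11, a BiP cochaperone, at 1.26 ± 0.09, and Rcl1 at 0.35 ± 0.09 per the authors' deposited table. Rcn1 and Rcn3, reticulocalbins of the ER, were at 0.15 ± 0.09 and 0.23 ± 0.14 per the authors' deposited table and were not called.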
